A study of Mus musculus with 3 samples.

Results

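Retinoic acid is made from vitamin A, and 10 genes of its synthesis, breakdown, binding and receptors were measured in ureteric bud cells of the mouse embryo. The genes were Aldh1a1, Aldh1a2 and Aldh1a3 (synthesis), Cyp26a1 and Cyp26b1 (breakdown), Crabp1 and Crabp2 (binding) and Rara, Rarb and Rarg (receptors), taken by symbol from the 19938 genes that had a probe set naming no other gene. Each of the 10 had 1 such probe set. The ureteric bud grows out of the nephric duct and branches into the collecting system of the kidney.

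The study has 1 group of 3 arrays, and each array holds the sorted cells of a single bud that was not pooled with others. The embryos were CD-1 mice at 10.5 days post coitum (Theiler stage 18, sex unknown) that carried the transgene Tg(Hoxb7-EGFP)33Cos, which expresses green fluorescent protein under Hoxb7 regulatory sequence in duct and bud, and the labels name the tissue ureteric tip. Cells were dissected, freed with trypsin and sorted by fluorescence, and their RNA went through 1 round of amplification. With no second condition, the comparison open to the design is each gene's signal against a background level, and the spread from bud to bud.

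Retinol is first oxidised to retinal, and the Aldh1a enzymes turn retinal into retinoic acid. Crabp proteins bind retinoic acid in the cytoplasm, Cyp26 enzymes oxidise it for removal, and in the nucleus it binds RAR proteins, which sit on DNA as dimers with RXR proteins. In the developing kidney, retinoid signalling is known to keep Ret, the receptor that drives bud branching, expressed in the bud, and Aldh1a2 is known as an enzyme of the neighbouring stroma.

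Signals are on a log2 scale. Background was set on each array at the 95th percentile of olfactory receptors, genes not expected in this tissue, which gave 5.40, 5.45 and 5.41 log2 on arrays 1, 2 and 3. A gene was called above background when limma's one-sided test of its mean over that level had a Benjamini-Hochberg adjusted p under 0.05 over all genes. The number of arrays limits the precision, and probe sets differ in how brightly they bind, so no gene's signal is set against another's. Of all genes, 53.0% were called, and 10311 of 19938 held 1 identical value on all 3 arrays, which carries no measured spread. All 14 measured markers of bud and nephric duct were above background, among them Ret, Gfra1, Pax2 and Gata3. Endothelial markers were above it in 12 of 15, and stromal and other mesenchymal markers in 5 of 17 (Col1a1, Col1a2, Col3a1, Twist1 and Prrx1, named after their values were seen). Foxd1, Tcf21, Pdgfra and Pdgfrb were among the stromal markers not called.

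The retinoic acid response elements to which RAR and RXR dimers bind are repeats of a short half-site, and the promoter windows were searched for them because 2 of these genes, Rarb and Cyp26a1, are known to be induced by retinoic acid itself. RefSeq windows (GRCm38.p6) from 250 bases before to 50 after a gene's start were found for 8 of the 10 genes, as 13 windows, and not for Aldh1a3 and Crabp2. A repeat of the DR5 kind was counted where 2 half-sites, each GGTCA or GTTCA, lay in the same direction with 6 bases between them, on either strand. Such a repeat stood in the windows of Rarb and Cyp26a1 and in no other window of these genes. Over all windows it stood in 81 of 32851 (0.247%). The repeats with 2 or 3 bases between the same half-sites (DR1 and DR2, found in 0.402% and 0.399% of all windows) were in none of the 13. The DR5 repeat of Rarb ran from 52 to 37 bases before the start (chr14:16575513-16575528), and that of Cyp26a1 from 32 to 17 bases before it, on the opposite strand (chr19:37697776-37697791). The 250 bases before each start are shown because both genes carry the same kind of repeat and differed in their calls. They are printed 5′ to 3′ along the gene (Rarb, chr14:16575477-16575726, minus strand; Cyp26a1, chr19:37697558-37697807, plus strand), with the repeat in capitals.
Rarb: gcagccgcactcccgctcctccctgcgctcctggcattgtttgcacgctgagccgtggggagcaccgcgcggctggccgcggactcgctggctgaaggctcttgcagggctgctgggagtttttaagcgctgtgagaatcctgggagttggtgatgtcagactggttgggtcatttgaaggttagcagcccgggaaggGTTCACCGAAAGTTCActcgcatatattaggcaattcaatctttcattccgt
Cyp26a1: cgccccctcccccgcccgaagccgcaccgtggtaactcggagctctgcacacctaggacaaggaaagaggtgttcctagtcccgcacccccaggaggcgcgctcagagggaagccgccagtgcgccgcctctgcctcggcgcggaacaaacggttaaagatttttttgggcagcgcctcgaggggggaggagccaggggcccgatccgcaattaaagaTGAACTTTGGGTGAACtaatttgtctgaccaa
A match of letters describes the sequence and shows no binding in these cells.

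Of the 10 genes, 7 were above background, against 53.0% of all genes, with a median of 0.81 log2 over the level against 0.22 over all genes. Both binding proteins and all 3 receptors were called, as were 2 of 3 synthesis enzymes and neither breakdown enzyme. The calls depend on where background is set. With the 99th percentile of olfactory receptors (35.3% of all genes called) 4 of the 10 were above it, namely Aldh1a1, Aldh1a3, Crabp2 and Rarb. With a background of beta-defensins and keratin-associated proteins (21.1% of all genes called) 3 were, namely Aldh1a1, Aldh1a3 and Crabp2.

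**Figure D1:**
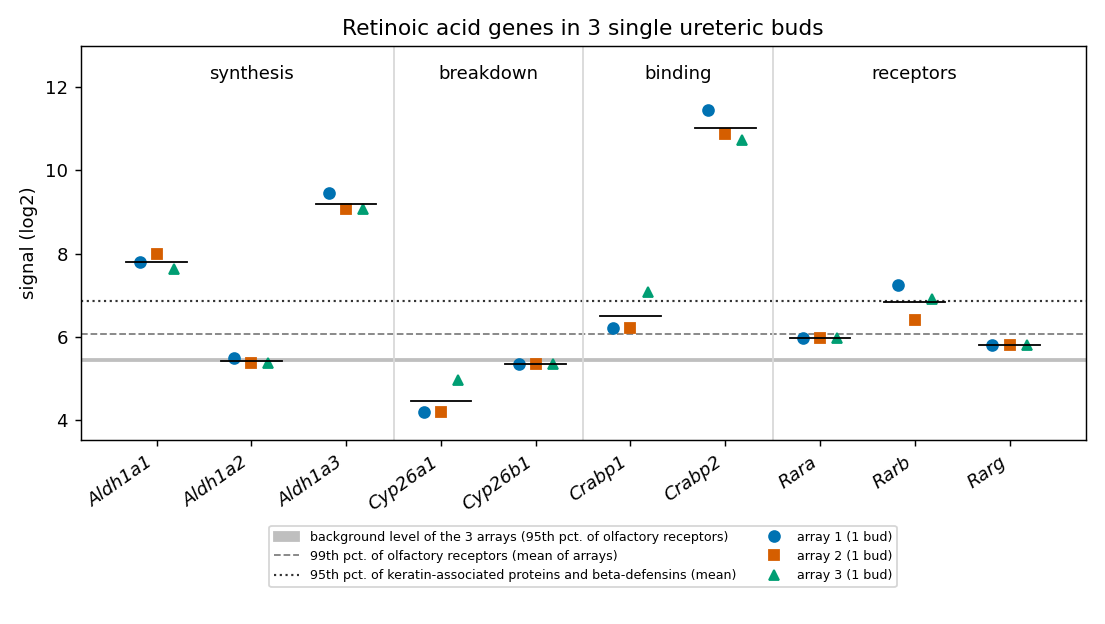
Signal (log2) of the 10 genes on each of the 3 arrays (points), their mean (bars) and 3 settings of the background level (grey band and broken lines). Every point of Aldh1a1, Aldh1a3 and Crabp2 lies above all 3 lines, while Cyp26a1 lies below the band on every array.

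Among the synthesis enzymes, Aldh1a3 had signals of 9.45, 9.06 and 9.06 log2 on arrays 1, 2 and 3, and Aldh1a1 had 7.80, 7.98 and 7.64. All of these values lay more than 2 log2 above their array's background level. The mean of Aldh1a3 was 9.19 ± 0.22 log2 (SD, n = 3), which is 3.77 ± 0.10 (SE) over the background level (limma, adjusted p = 1.62e-05). The mean of Aldh1a1 was 7.80 ± 0.17 log2, or 2.38 ± 0.07 (SE) over it (limma, adjusted p = 1.63e-05). Both were called under all 14 alternatives of background, normalization, filtering and left-out arrays, though the choices of probe set could not change their values. Without array 1, without array 3 and against vomeronasal receptors, limma's adjusted p for Aldh1a3 was 6.25e-170, 1.45e-192 and 1.97e-287. The spread of the buds cannot give such values, so these alternatives are no check. Without array 2 the adjusted p was 0.00232 for Aldh1a3 and 0.00136 for Aldh1a1 (limma). Aldh1a2, the enzyme of kidney stroma, had 5.49, 5.36 and 5.36 log2, with array 1 just above its level and arrays 2 and 3 just below. Its mean of 5.40 ± 0.07 log2 was −0.02 ± 0.04 (SE) from background and was not called (limma, adjusted p = 1). It was called against the 90th percentile, and against vomeronasal receptors, 0.36 and 0.58 log2 over those levels. Aldh1a7, a close relative of Aldh1a1 that was added after its values were seen, was called above background at 5.50 ± 0.01 log2, 0.09 over the level (limma, adjusted p = 0.0189), and how far each of the 2 probe sets also binds the other transcript was not tested.

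Both breakdown enzymes were at or under background. Cyp26a1 had 4.19, 4.19 and 4.96 log2, below the level on every array and highest on array 3. Its mean of 4.45 ± 0.45 log2 (SD, n = 3) was −0.97 ± 0.20 (SE) from background, and it was called under none of the 14 alternatives. Cyp26b1 was listed at 5.34 log2 on every array, −0.08 ± 0.02 (SE) from background. Cyp26b1 was called against the same 2 lower levels, 0.30 and 0.52 log2 over those levels. The third enzyme of the family, Cyp26c1, was at 5.28 log2 on every array and not called.

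Of the binding proteins, Crabp2, which carries retinoic acid to the receptors in the nucleus, had 11.46, 10.88 and 10.72 log2. Array 1 was the highest, and the lowest array still lay 5.32 log2 above its level. The mean was 11.02 ± 0.39 log2 (SD, n = 3), or 5.60 ± 0.17 (SE) over background (limma, adjusted p = 2.17e-05). The call held under all 14 alternatives, of which those named for Aldh1a3 are again no check. Without array 2 the adjusted p of Crabp2 was 0.00344 (limma). Crabp1, the other cytoplasmic binding protein, had 6.21, 6.21 and 7.08 log2, with the same value on arrays 1 and 2 and a higher one on array 3. Its mean of 6.50 ± 0.50 log2 was 1.08 ± 0.22 (SE) over background (limma, adjusted p = 0.00951). That call was lost without array 2 (limma, adjusted p = 0.0589), at the 99th percentile (limma, adjusted p = 0.0728) and against beta-defensins and keratin-associated proteins. Without array 2 its mean lay 1.24 log2 over background. It lay 1.21 over it without array 1 and 0.78 without array 3, called at adjusted p of 1.3e-20 and 1.36e-09 (limma). The spread of the buds left in those fits cannot give values so low, so these calls are no check of the result. Across its alternatives limma's adjusted p ran from 1.9e-44, against vomeronasal receptors, to 1. So low a value cannot come from the spread of 3 buds alone.

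The receptor Rarb, whose window holds the repeat shown above, had 7.24, 6.39 and 6.90 log2. It was above background on every array, highest on array 1 and lowest on array 2. Its mean was 6.84 ± 0.43 log2 (SD, n = 3), or 1.42 ± 0.19 (SE) over background (limma, adjusted p = 0.00263). Of the 14 alternatives only the background of beta-defensins and keratin-associated proteins ended the call, at −0.02 log2. The call held without array 2 (limma, adjusted p = 0.0074), while the fits without array 1 or array 3 are no check, as for Crabp1. Rara and Rarg, the other receptors of the family, were each listed at 1 value on all arrays, 5.95 and 5.79 log2. Rara was thus 0.53 and Rarg 0.37 log2 over background (limma, adjusted p of 6.22e-05 and 0.000191). For these 2 genes limma's error reflects the 3 background levels and the prior, not the buds. Both calls were lost against beta-defensins and keratin-associated proteins and at the 99th percentile, where the genes lay −0.11 and −0.27 log2 from the level.

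The wider retinoid lists had 66 measured genes besides the 10, of which 33 (50%) were above background, against 53.0% of all genes. Against beta-defensins and keratin-associated proteins 17 were, against 21.1%. The RXR partners Rxra and Rxrb were above background at 5.99 and 5.69 log2, each the same on every array, and Rxrg, at 4.84, was not.

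Of 10 genes of retinol transport, uptake and storage, 2 were above background (20%, against 53.0% of all genes). Stra6, the membrane receptor that takes up retinol, had 7.74, 7.36 and 7.36 log2, a mean of 7.48 ± 0.22 (SD, n = 3), and Lrp2, the endocytic receptor megalin, was at 6.25 log2 on every array. Rbp2, Rbp3, Rbp4, Rbp7, Ttr, Stra6l, Lrat and Lpl were not called. Lrat, which stores retinol as esters, was at 4.81 log2 and Rbp4, the carrier of retinol in blood, at 4.91, both the same on every array.

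Of 21 genes of retinol and retinal interconversion, 7 were above background (33.3%, against 53.0% of all genes). Rdh10, the main retinol dehydrogenase of the embryo, had 9.08, 8.49 and 7.24 log2, highest on array 1 and lowest on array 3. Its mean was 8.27 ± 0.94 log2 (SD, n = 3; limma, adjusted p = 0.0028), and its range of 1.84 log2 between buds was exceeded by 0.502% of all genes. Dhrs3, which turns retinal back into retinol, was at 6.21 log2 on every array. The other 5 were Dhrs4 (7.99 ± 0.39 log2), Adh5 (9.31 ± 0.01), Rdh14 (6.77, the same on every array), Rdh1 (5.81 ± 0.01) and Rdh13 (5.61, the same on every array). Adh1 had 5.36, 5.36 and 6.22 log2, above background on array 3 alone, and was not called (limma, adjusted p = 0.323). Rdh5, Rdh7, Rdh9, Rdh11, Rdh12, Rdh16, Dhrs7, Dhrs9, Adh4, Adh7, Bco1, Bco2 and Aldh8a1 were not called either. Fabp5, a fatty acid binding protein that can also carry retinoic acid, was above background at 9.44 ± 0.13 log2, and Cyp2s1 was not.

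Coregulators that work with nuclear receptors were above background in 12 of 13, against 53.0% of all genes, and 7 of the 13 were identical on all arrays. The coactivators Ncoa1, Ncoa2 and Ncoa3 were at 5.60, 6.61 and 7.13 log2 and the corepressor Nrip1 at 7.97, each the same on every array, while the corepressor subunits Tbl1x and Tbl1xr1 were at 8.97 ± 0.10 and 8.39 ± 0.09 (SD, n = 3). Hdac3, Med1, Ep300, Crebbp, Carm1 and Zfp423 were the others called, and Kat2b was the one that was not.

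Of 16 measured genes known to respond to retinoic acid, 9 were above background (56.2%, against 53.0% of all genes). Ret had 8.69, 8.35 and 8.18 log2, a mean of 8.41 ± 0.26 (SD, n = 3). The homeobox genes Hoxb1, Hoxb4 and Hoxd4 were at 6.15, 7.95 and 7.23 log2 on every array and Hoxb5 at 8.39 ± 0.03. Cdx1, Wnt8a, Egr1 and Ecm1 were also above background. Meis1, at 4.34 log2 on every array, Meis2, Tgm2, Stra8, Foxa1, Foxa2 and Tshz1 were not. Of the 74 genes on these and the other wider lists, measured or not, 51 had a promoter window. Kat2b alone among the 51 held a DR5 repeat, against 0.27% of all genes with windows. Ret, Hoxb5, Cdx1, Wnt8a and Egr1 were among the 23 without a window and were not searched.

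**Figure D2:**
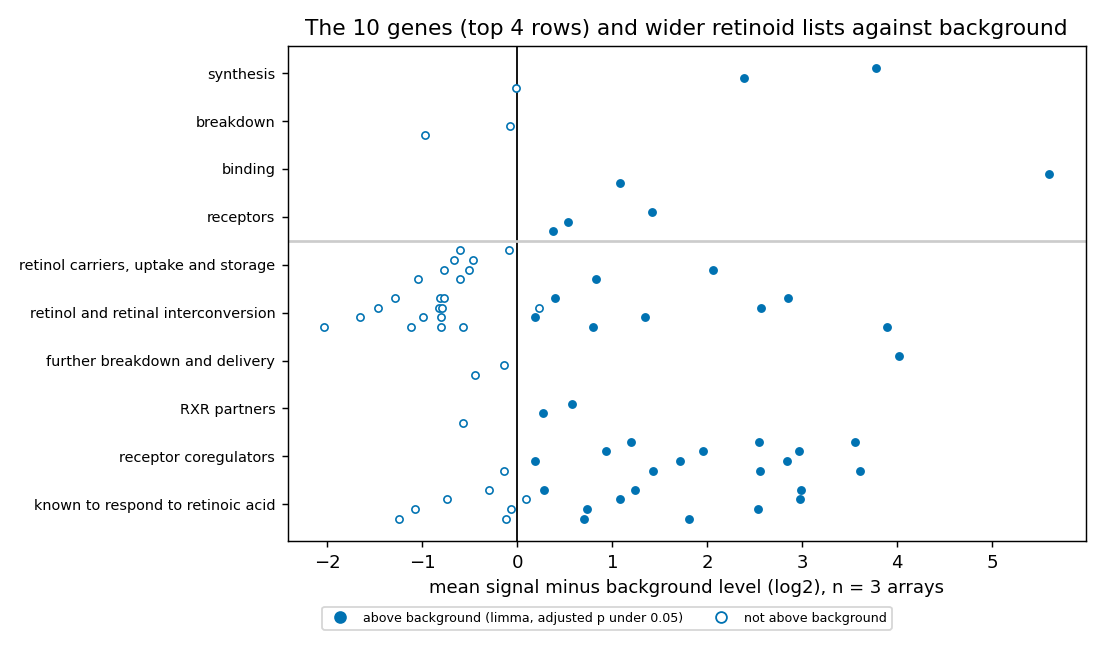
Mean signal minus background level (log2, n = 3 arrays) of the 10 genes (top 4 rows) and the 66 genes of the wider lists, 1 point per gene, filled where limma called it above background. The breakdown row holds only open points, and the coregulator row holds 12 filled points of 13.

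Between buds the 10 genes varied by a median of 0.37 log2 from lowest to highest array, against 0.00 over all genes, of which 51.7% were identical on all arrays (3 of the 10 genes were). Ranges over 0.5 log2 were found for 4 of the 10 and for 8.38% of all genes. These were Crabp1 (0.87 log2), Rarb (0.85), Cyp26a1 (0.77, all of it below background) and Crabp2 (0.74), ranges that 3.10%, 3.25%, 3.92% and 4.48% of all genes exceeded. Aldh1a3 and Aldh1a1 ranged over 0.39 and 0.34 log2 and Aldh1a2 over 0.13. Each array is a single bud, so a difference between arrays has no replicate and was not tested.

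**Figure D3:**
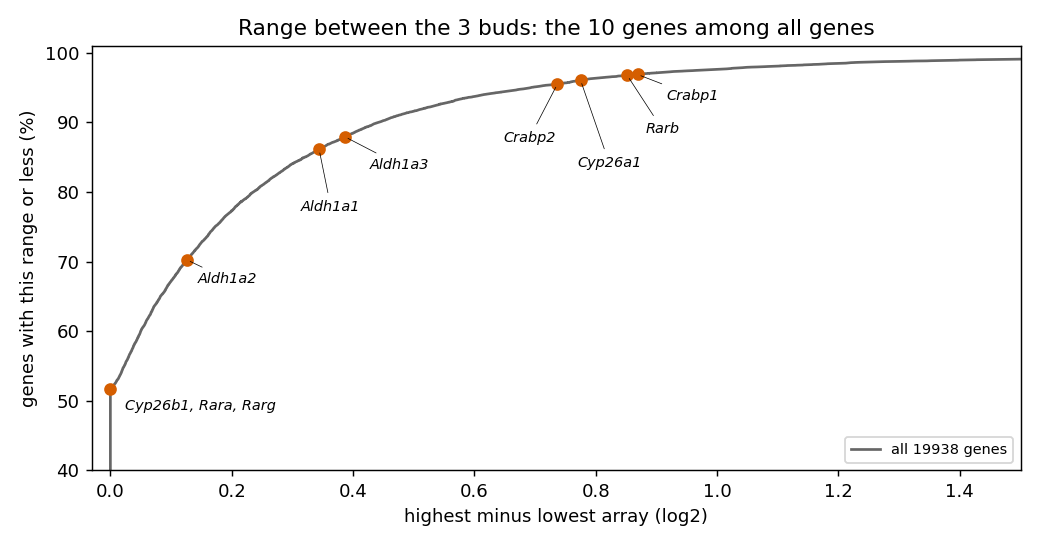
Highest minus lowest array (log2) of each of the 10 genes (points) on the cumulative curve of all 19938 genes, with the share of genes at that range or less on the vertical axis (which starts at 40%). Crabp1, Rarb, Crabp2 and Cyp26a1 (below background on every array) lie beyond 0.7 log2, and Cyp26b1, Rara and Rarg lie at 0.

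The genes did not vary in 1 direction. Crabp2, Aldh1a3 and Rarb were highest on array 1, by 0.66, 0.39 and 0.59 log2 over the mean of the other arrays. Aldh1a1 was highest on array 2, by 0.26 log2, and Crabp1 on array 3, by 0.87 log2. Cyp26a1 was also highest on array 3, by 0.77 log2, but it lay below background on every array. Rarb was lowest on array 2, −0.68 log2 from the others. Marker lists of the sorted cells and of other cell types moved between arrays too. Bud and duct markers were highest on array 1 in 9 of 14, with summed linear signals (powers of 2 of the values) of 8396, 7010 and 6714 on arrays 1, 2 and 3. The sort for green fluorescence should leave out endothelium. Endothelial markers had summed signals of 1552, 878 and 2135, and 8 of 15 were highest on array 3. The endothelial adhesion gene Cdh5 was at 8.22, 5.90 and 8.07 log2 and the sialomucin Emcn at 8.37, 6.73 and 9.55, lowest on array 2 as Rarb was. Erythroid markers summed to 1019, 347 and 795 over 8 genes. The embryonic globin Hbb-y was at 8.86, 5.48 and 8.52 log2, though not called over the 3 arrays (limma, adjusted p = 0.053). Of the 8 erythroid genes, 4 were the same on every array, and the list's median shifts were 0.01, 0 and 0 log2 on arrays 1, 2 and 3. Markers of neural crest and neurons summed to 533, 364 and 336 over 6 genes. The neuronal tubulin Tubb3, named after its values were seen, was at 7.86, 5.93 and 6.09 log2. It was highest on array 1 as Rarb, Crabp2 and Aldh1a3 were, though not called over the 3 arrays (limma, adjusted p = 0.0608). The list did not move as a whole. Only Tubb3 and Erbb3 (6.87, 6.86 and 6.31 log2) were highest on array 1, and 2 of the 6 were the same on every array. The median shift of array 1 from the others was 0 log2. Stromal markers summed to 689, 672 and 669, and 14 of the 17 were the same on every array. Markers of metanephric mesenchyme summed to 463, 465 and 443, of leukocytes to 365, 368 and 378, and of coelomic epithelium and gonadal ridge to 288 on each array. The part of endothelial, blood or neural cell RNA in the values of Rarb, Crabp1, Crabp2 and Aldh1a3 was not tested, and fewer cells of a type and less RNA per cell cannot be told apart in such samples.

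**Figure D4:**
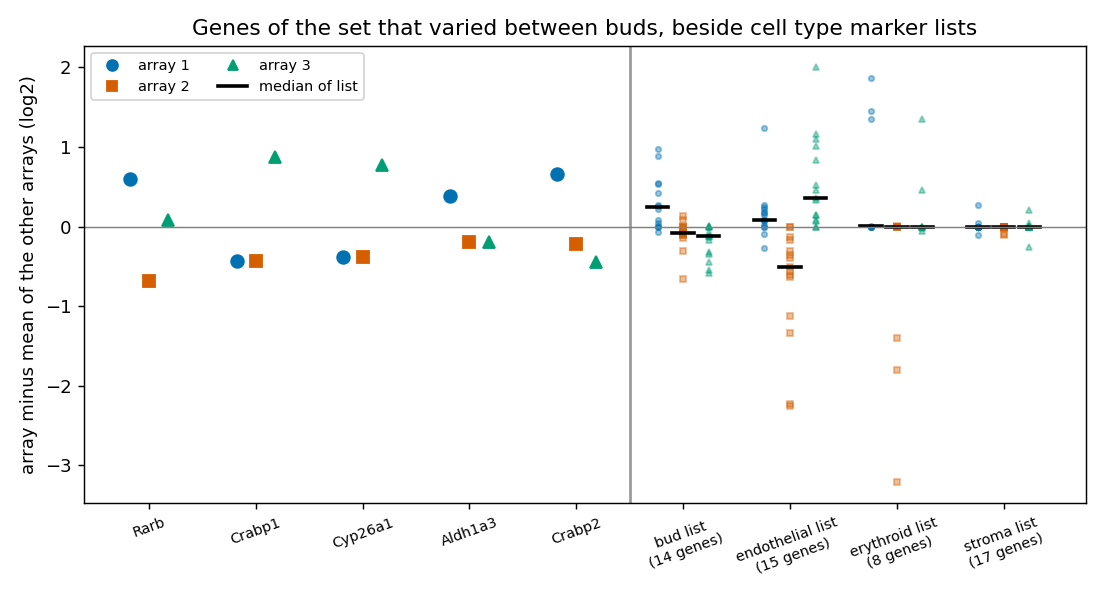
Each array minus the mean of the others (log2) for 5 of the 10 genes (left) and for the measured genes of 4 marker lists (right, small points, with the list's median as a bar). Rarb and the endothelial list are lowest on array 2, Crabp1 and Cyp26a1 (the latter below background throughout) are highest on array 3, and Crabp2, Aldh1a3 and the bud list are highest on array 1.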

How the data were processed

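The 3 arrays carry the replicate numbers of their titles, which imply no order. The authors deposited log2 signals, 1 per probe set and array. Per the submitters' processing notes these came from Affymetrix Expression Console. The base of the log was inferred from values between 1.69 and 14.15, and the sources used here do not give the background correction, normalization or summarization. Columns were used as deposited (medians of 5.47, 5.50 and 5.48 log2).

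Of 35557 probe sets, 21789 had 1 gene symbol in the platform annotation, 1621 had several and 12147 had none listed. The last 2 kinds were not used. RefSeq (GRCm38.p6) held gene IDs for 21698, and 0 symbols differed. Probe sets sharing a gene were averaged (999 of 19938 genes, none of the 10). limma 3.58.1 in R 4.3.3 fitted each gene's value minus the array's background level, drawn from 1035 olfactory receptor probe sets, over all genes (prior of 1.71 degrees of freedom, SD 0.0498 log2). P-values rest on the spread between 3 buds together with the background levels and the prior. For genes identical on all arrays the error holds only the background levels and the prior. For genes with the same value on exactly 2 arrays (28.7% of all genes, 4 of the 10), the measured spread is that of 1 array against the others. The fit and the motif search were tested on simulated data. The 10 genes and all lists were chosen with earlier results of these data known. The text names all 10 genes, every called gene of the transport, interconversion, breakdown and RXR lists, the first 6 coregulators and responsive genes with values, and up to 4 markers per list. Beyond that rule, the called stromal markers and Tubb3 were named after their values were seen. Alternatives were other percentiles and background genes, calls without a model, an SD floor, identical genes left out, quantile normalization, other choices of probe set, a filter on the lowest 25% and each array left out.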

Additional observations from a re-analysis of the deposited data

How the results depend on the processing

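The count of 7 called genes stayed between 5 and 9 in 12 of 14 alternatives, counting 5 of the 7 that vary when genes identical on all arrays were left out. Those 12 include the choices of probe set, which could not change the values of these genes. They also include the fits without array 1, without array 3 and against vomeronasal receptors, whose lowest p-values the spread of the buds cannot give. Over the same 12 the share of all genes called ran from 48.5% to 65.8%. The count fell to 4 at the 99th percentile (35.3% of all genes called) and to 3 against beta-defensins and keratin-associated proteins (21.1%). The wider count of 33 fell to 17 with the latter. It was 17 of 29 with identical genes left out, where fewer genes were tested and 63.1% of all genes were called. Otherwise it ran from 24 at the 99th percentile (35.3% of all genes) to 41 against vomeronasal receptors (65.8%). No paired analysis was possible because the arrays form 1 group. Aldh1a2 turned from −0.02 log2 to 0.36 above the 90th percentile and 0.58 above vomeronasal receptors, and ran from −0.07 to 0.02 with an array left out. Cyp26b1 turned from −0.08 to 0.30 and 0.52 under the same backgrounds. At the 99th percentile Rara and Rarg fell to −0.11 and −0.27 log2. Against beta-defensins and keratin-associated proteins Crabp1, Rara, Rarb and Rarg fell to −0.37, −0.91, −0.02 and −1.07. These turns follow from where the level lies, apart from the array left out, whose cause was not tested. Signal close to background limits the calls of Rara, Rarg, Aldh1a2 and Cyp26b1. The other changes were 2 lost calls of Crabp1, at the 99th percentile and without array 2.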

Other observations

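The deposited values repeat within as well as between arrays. Of the 35557 probe sets, 40.7% held 1 value on all 3 arrays and a further 24.4% held the same value on exactly 2. Of the 10 genes, 3 belong to the first kind and 4 (Aldh1a2, Aldh1a3, Cyp26a1 and Crabp1) to the second. Arrays 1, 2 and 3 had 19073, 19552 and 19024 distinct values at 5 decimals, and 1 value (3.95 log2) stood in 270 probe sets. The value of Crabp1 on array 3, the array on which it was highest, stood in 30 other probe sets, and that of Rarb on the same array in 19. The value of Aldh1a1 on array 3 stood in 12 other probe sets, and that of Aldh1a2 on arrays 2 and 3 in 4. Rarg shared its value with 6 other probe sets and Cyp26b1 with 9, whereas every value of Crabp2, Aldh1a3, Cyp26a1 and Rara was shared with no other probe set. How the summarization gave such repeats was not tested.

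The promoter windows of the 8 matched genes differed in base composition. The window of Aldh1a2 had a GC content of 78.0% and 50 CpG dinucleotides. Its GC content was above the 90th percentile of all windows (69.7%), as was that of 1 Rarg window (70%). The windows of Aldh1a1 had 43.3% and 47.0%, under the median of 52.7%, with 3 and 1 CpG. The other Rarg window, at 51.7%, was under the median too.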
